A study of Mus musculus with 10 samples.

Results

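The genes described here are 10 immediate early transcription factors, chosen by symbol: Fos, Fosb, Jun, Junb, Egr1, Egr2, Egr3, Nr4a1, Nr4a2 and Nr4a3. They are 10 of the 45777 genes in the deposited table, and all 10 passed the filter on low counts that left 21523 genes for testing. RNA was sequenced from 10 MC38 tumors fixed in formalin and embedded in paraffin. MC38 is a mouse colon carcinoma line, and the tumors grew under the skin of the flank in wild type C57BL/6 female mice, bought at 6 weeks of age. The combination group (YH29407+aPD-1, 3 tumors, replicates 2, 3 and 4) received YH29407 at 100 mg/kg and aPD-1 at 10 mg/kg. The YH29407 group (3 tumors, replicates 1, 3 and 4) received YH29407 at 100 mg/kg, and the aPD-1 group (2 tumors, replicates 3 and 4) received aPD-1 at 10 mg/kg. The control group (2 tumors, replicates 3 and 5) received neither agent. YH29407 inhibits IDO1, the enzyme that starts tryptophan breakdown to kynurenine, and aPD-1 is an antibody against the checkpoint receptor PD-1. All groups share the tumor line and the host strain, each sample is a whole tumor with its host cells, and the day on which the sequenced tumors were taken is not given in the sources used here.

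Immediate early genes are transcribed within minutes of a signal, before any new protein is made, because the factors that switch them on (SRF with its ETS partners, CREB, NFAT) are already in the cell. Fos, Fosb, Jun and Junb encode subunits of AP-1, a dimer that needs a Jun protein and can take a Fos protein as partner. Egr1, Egr2 and Egr3 encode zinc finger factors, of which Egr2 and Egr3 are known in T cells as targets of NFAT that restrain activation. Nr4a1, Nr4a2 and Nr4a3 encode orphan nuclear receptors, and Nr4a1 (Nur77) is induced by T cell receptor signaling. The same genes respond to growth factors in tumor cells and fibroblasts and to stress in most cells, so that their source in a whole tumor cannot be read from the gene alone.

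The upstream sequences of 4 of these genes are shown because the results turn on them: Egr2 was higher in the combination than with YH29407, Nr4a1 was lowest with YH29407, and Fos and Fosb stood high in a single aPD-1 tumor. They are RefSeq sequences on the GRCm38.p6 assembly, from 150 to 11 bases before the annotated start, read 5′ to 3′ on the strand of the gene. Capitals mark CRE half-sites (TGACG on either strand, the core bound by CREB), EGR sites (GCGNGGGCG on either strand), the CArG box bound by SRF, and TATAAA on the gene's strand. A full CRE (TGACGTCA) contains the half-site on both strands.
Fos, plus strand, chr12:85473740-85473879: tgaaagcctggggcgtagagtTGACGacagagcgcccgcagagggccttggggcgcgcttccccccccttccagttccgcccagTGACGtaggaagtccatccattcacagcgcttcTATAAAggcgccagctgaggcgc
Fosb, minus strand, chr7:19310056-19310195: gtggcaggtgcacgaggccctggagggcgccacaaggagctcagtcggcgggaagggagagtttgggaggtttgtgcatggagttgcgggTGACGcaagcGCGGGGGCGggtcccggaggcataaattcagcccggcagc
Egr2, plus strand, chr10:67537719-67537858: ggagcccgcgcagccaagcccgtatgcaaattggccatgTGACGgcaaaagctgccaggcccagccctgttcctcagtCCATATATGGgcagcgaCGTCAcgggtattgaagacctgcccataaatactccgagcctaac
Nr4a1, plus strand, chr15:101266696-101266835: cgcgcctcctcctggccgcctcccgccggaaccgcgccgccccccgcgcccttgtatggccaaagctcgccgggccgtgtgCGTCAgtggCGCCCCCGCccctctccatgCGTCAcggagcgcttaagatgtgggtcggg

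Promoter entries were matched for 8 of the 10 genes, with 5 alternative start windows for Egr2 and 1 for each of the others. No window was used for Egr1 and Egr3. The printed stretches hold no annotated exon base of their own gene in GENCODE, and those of Egr2 and Nr4a1 lie inside longer annotated forms of these genes. In the 250 bases before the start, 7 of the 8 genes held a CRE half-site in at least 1 window (Jun was the exception), against 17.8% of 32851 promoter windows of the same length. Genes are counted here over all their windows and the background over single windows, so that Egr2, with 5, had more chances of a match. The counted window of Nr4a3 (chr4:48045055-48045304) lies mostly past the annotated gene start at 48045078 and overlaps annotated exons. Some alternative windows of Egr2 overlap exons too, so that matches there need not lie upstream of every form. In Fos the half-sites began 129 and 66 bases before the start, and in Fosb 60 bases before it. An EGR site occurred in Fosb, Nr4a1 and Nr4a2, 3 of the 8, against 4.7% of all windows. The CArG box occurred in Egr2 of the 8 genes and in 1.47% of windows, and TATAAA occurred in Fos and in 7.59% of windows. A full CRE was found in 0 of the 8 genes and in 1.55% of windows. A match is a description of letters in this window and not a measured binding site.

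The libraries held 56170804 to 76287659 counts, and the least covered of the 10 genes, Fosb, had 56 to 1174 counts per library. Levels are given in CPM, counts scaled to the library total corrected by TMM factors, unless TPM, which is also scaled to transcript length, is named. Combination replicate 4 stood apart: 2.28% of its counts came from mitochondrial mRNA genes (0.413% to 0.56% in the other libraries), and it was the highest of the 10 libraries for 31.8% of the genes tested. The label calls the cells colon cells, yet the summed level of 10 epithelial and colon markers was 2.48 to 13.6 CPM, and 3 to 6 of the 10 were at 0 counts in each library. Tissue around the tumor also differed between libraries. Keratinocyte and skin markers (12 genes) summed to 1110 CPM in combination replicate 2, 229.8 CPM in replicate 3 and 14.6 CPM in replicate 4, against 2.65 to 39.3 CPM in the 7 other tumors. In bulk tissue fewer cells of a type and less RNA per cell cannot be told apart.

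Compared per length, Jun was the highest of the 10 genes, with a median of 189.6 TPM and a range of 79.4 to 264.5 TPM over the 10 tumors. Junb followed with a median of 116.2 TPM (77.6 to 138.0), and Egr1 with 33.0 TPM (16.4 to 53.9). Jun and Junb overlapped over tumors, while the lowest Junb value lay above the highest Egr1 value. Nr4a1 had a median of 17.3 TPM (13.3 to 21.6) and Fos 16.4 TPM (7.81 to 64.5), and these neighbours did not differ beyond their spread. The same held for Egr2 at 5.11 TPM and Nr4a2 at 4.98 TPM. Nr4a3, Egr3 and Fosb were lowest, with medians of 1.27, 1.24 and 0.863 TPM, and their ranges overlapped. The highest library exceeded the lowest 20.2 times in CPM for Fosb, 8.18 times for Egr3 and 8.10 times for Fos, and 2.02 times for Nr4a2.

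**Figure D1:**
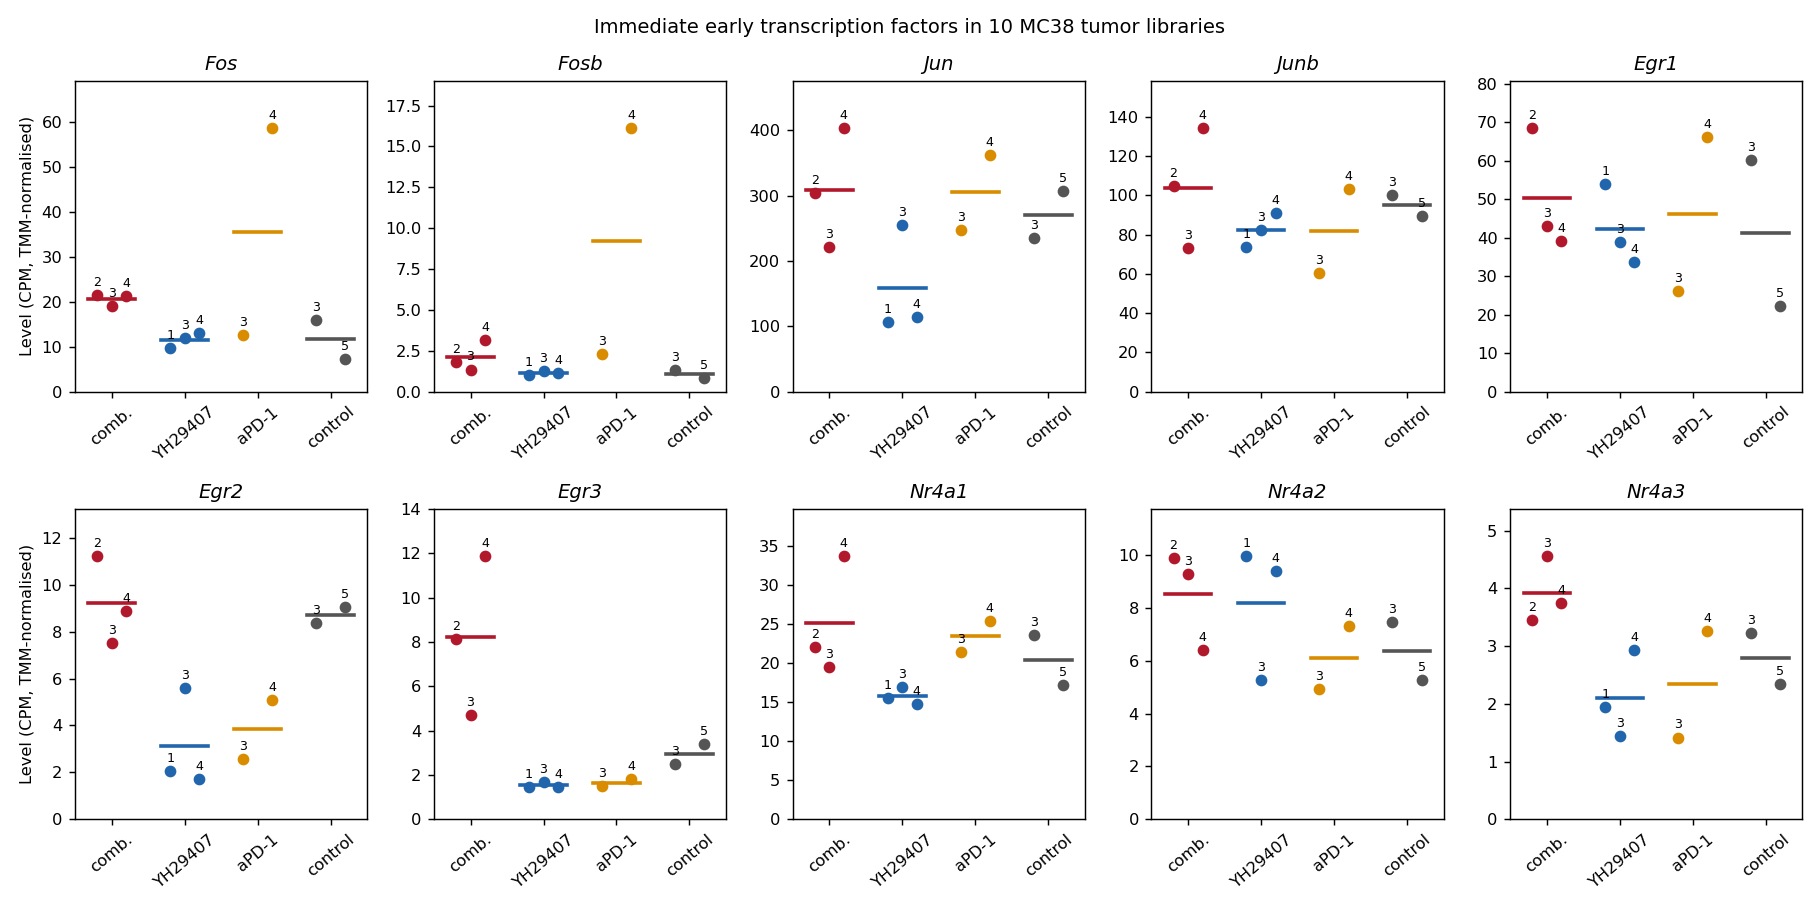
Level of each gene in CPM (vertical axis, starting at 0) in every tumor of the 4 groups (horizontal axis, "comb." is the combination). Points are tumors with their replicate numbers and bars are group means. Egr3 and Nr4a3 have all 3 combination tumors above the other 7, Nr4a1 has all 3 YH29407 tumors below the other 7, and aPD-1 replicate 4 stands high for Fos (58.5 CPM) and Fosb (16.1 CPM).

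The combination was compared with YH29407 alone to see what aPD-1 adds to the IDO1 inhibitor. Egr3 showed the largest fold change of the 10 genes. It had 8.15, 4.70 and 11.9 CPM in the combination tumors, against 1.45, 1.66 and 1.47 CPM in the YH29407 tumors. Each combination tumor was above each YH29407 tumor, and also above the aPD-1 tumors (1.5 and 1.8 CPM) and the control tumors (2.47 and 3.39 CPM). The log2 fold change to YH29407 was 2.43 ± 0.36 (SE), 5.39-fold, with an unadjusted p of 0.000105 and an adjusted p of 0.181 by edgeR's quasi-likelihood test, so that it did not pass 0.05 over 21523 genes.

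Egr2 had the next largest difference. It had 11.2, 7.53 and 8.87 CPM in the combination, against 2.07, 5.58 and 1.72 CPM with YH29407, and the groups did not overlap. YH29407 replicate 3 lay between its fellow tumors and the combination. The log2 fold change was 1.56 ± 0.48 (SE), with an adjusted p of 0.226 by edgeR. Egr1, the family member best known as a growth factor response gene, had 68.4, 43.1 and 39.1 CPM in the combination and 54.1, 38.9 and 33.7 CPM with YH29407, groups that overlapped, with a log2 fold change of 0.25 ± 0.46.

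Among the orphan receptors, Nr4a1 had 22.03, 19.4 and 33.7 CPM in the combination, against 15.6, 16.9 and 14.7 CPM with YH29407. These values did not overlap, and the YH29407 tumors were also below the aPD-1 tumors (21.4 and 25.4 CPM) and the controls (23.5 and 17.2 CPM), an order held by 1.41% of all genes. Its log2 fold change was 0.67 ± 0.25 (SE; edgeR adjusted p = 0.259). Nr4a3 had 3.45, 4.56 and 3.74 CPM in the combination, against 1.94, 1.44 and 2.93 CPM with YH29407. The combination tumors were above all 7 others for Nr4a3, with aPD-1 replicate 4 (3.26 CPM) and control replicate 3 (3.23 CPM) close below. Egr3 and Nr4a3 were the 2 of the 10 genes with this order, against 4.78% of all genes. The log2 fold change was 0.90 ± 0.39 (edgeR adjusted p = 0.286). Nr4a2 overlapped fully between the groups, with 6.42 to 9.89 CPM in the combination and 5.27 to 9.97 CPM with YH29407, and a log2 fold change of 0.06 ± 0.33.

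Of the AP-1 subunits, Fos had 21.4, 18.9 and 21.2 CPM in the combination, against 9.69, 12.0 and 12.97 CPM with YH29407. Fosb had 1.80, 1.35 and 3.15 CPM, against 0.996, 1.24 and 1.13 CPM. Neither gene's groups overlapped, and the log2 fold changes were 0.83 ± 0.51 for Fos and 0.90 ± 0.64 for Fosb. The coefficient of variation that the fit estimated over all 4 groups was 44.4% for Fos and 56.1% for Fosb, against 43.7% for Egr2. For Fos it takes in the aPD-1 tumors, at 12.5 and 58.5 CPM. Jun, the main partner in the dimer, had 303.7, 221.1 and 402.9 CPM in the combination, against 106.2, 254.8 and 114.3 CPM with YH29407. YH29407 replicate 3 reached into the range of the combination, as it came nearest to it for Egr2. The log2 fold change of Jun was 0.97 ± 0.38 (edgeR adjusted p = 0.261), and that of Junb was 0.34 ± 0.27 with overlapping groups.

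In this comparison 10 of the 10 genes had a positive log2 fold change, against 52.3% of all genes tested. Their median was 0.86, against 0.04 over all genes. At an unadjusted p under 0.05, 5 of the 10 were higher (Egr2, Egr3, Jun, Nr4a1 and Nr4a3), where the background was 10.6% of genes, and 0 were lower, where it was 6.84%. Without overlap between groups, 6 of the 10 were higher (Fos, Fosb, Egr2, Egr3, Nr4a1 and Nr4a3), against 10.4% of all genes. No gene passed the adjusted threshold of 0.05 in edgeR's test, 0 of the 10 and 0 of all genes tested, a background of 0.0%, while 3753 genes had an unadjusted p under 0.05. DESeq2, whose test gives more calls in these data, called 2 of the 10, Egr2 (adjusted p = 0.0275) and Egr3 (adjusted p = 2.48e-07), and 6.27% of the genes it tested.

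Single libraries moved these counts and calls. At an unadjusted p under 0.05 there were 2 of the 10 genes, Egr2 and Egr3, without combination replicate 4 (against 19.9% of genes in either direction) and without YH29407 replicate 1 (8.64%). There were 3 of the 10 without combination replicate 2 (13.7%) and without YH29407 replicate 4 (9.42%), Egr2 and Egr3 among them both times. Fos was added to the 5, giving 6 of the 10, without aPD-1 replicate 3 (12.4%) and without aPD-1 replicate 4 (12.9%). The same 6 were below it with only the 2 groups compared (11.1%). Without combination replicate 4, the library that stood apart, edgeR gave Egr3 a log2 fold change of 2.08 and an adjusted p of 0.0314, and 0.847% of genes were called. Without YH29407 replicate 3, both Egr2 (2.31, adjusted p = 0.0329 by edgeR) and Egr3 (2.54, adjusted p = 0.0417) were called, with 2.01% of genes. Without combination replicates 2 and 3, the tumors with skin genes, Egr3 had a log2 fold change of 2.84 and Nr4a1 of 0.98, both called (edgeR adjusted p = 0.000785 and 0.0154), but the combination was then 1 tumor, taken to vary like the other groups, and 34.4% of all genes were called. Without combination replicate 2, 8 of the 10 genes had a positive log2 fold change, the exceptions being Egr1 (-0.0058) and Nr4a2 (-0.035).

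**Figure D2:**
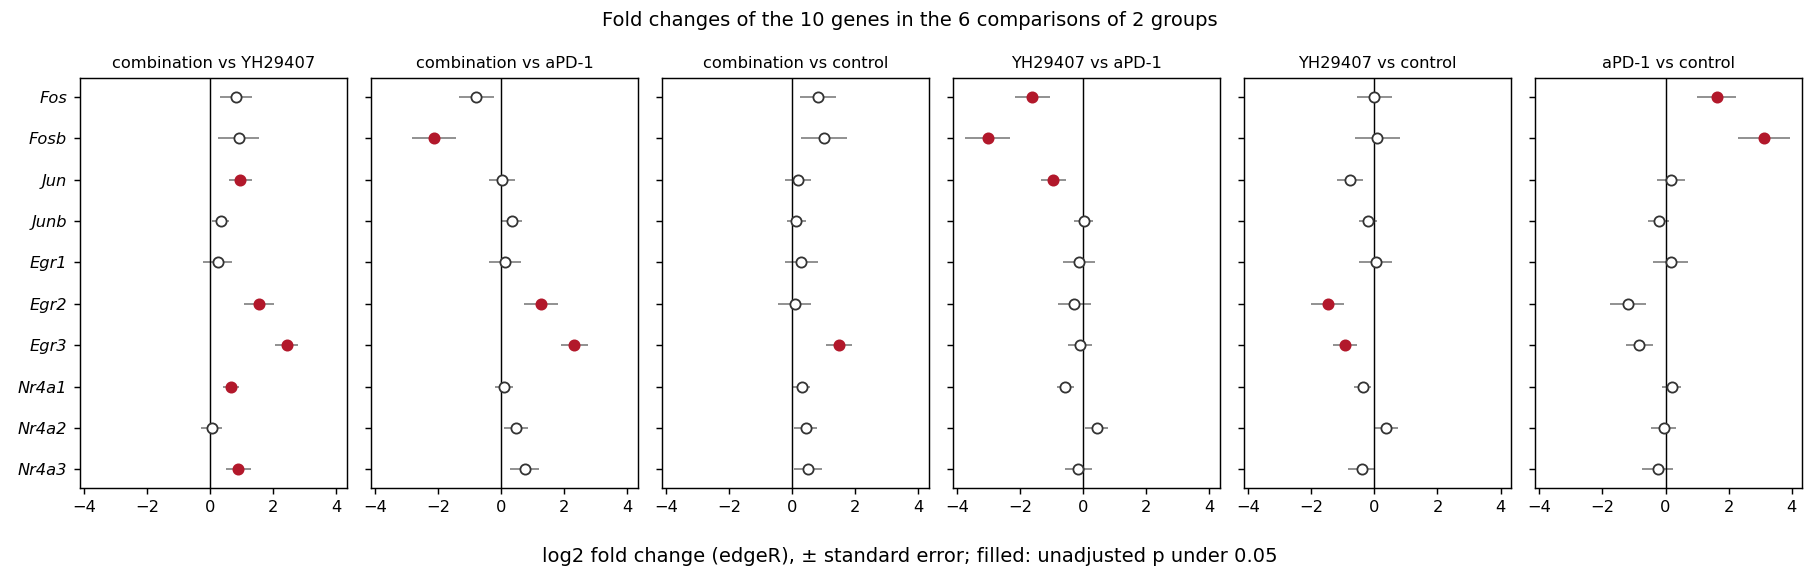
Log2 fold changes from edgeR with standard errors (horizontal axis) for the 10 genes (vertical axis) in the 6 comparisons of 2 groups. Filled points have an unadjusted p under 0.05, and no point passed the adjusted threshold. Egr3 lies at 2.43, 2.32 and 1.49 in the 3 comparisons of the combination, and Fosb at 3.12 between aPD-1 and control.

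Cell type markers also differed between the combination and YH29407. The 16 T cell markers summed to 102.6, 111.2 and 42.5 CPM in the combination, against 16.3, 49.9 and 14.9 CPM with YH29407, and for 12 of the 16 a higher level had an unadjusted p below 0.05. Within the combination Egr3 was highest in replicate 4, the tumor with the lowest T cell sum. That library was also the highest of the 10 for 31.8% of all genes. Within the YH29407 group the tumor with the highest T cell sum, replicate 3, was also the one with the highest Egr2 and Jun. Egr3 was highest there too, by a small margin (1.66 CPM, against 1.45 and 1.47 CPM). Skeletal muscle markers summed to 100.5, 61.9 and 265 CPM in the combination and to 12.5, 14.3 and 13.7 CPM with YH29407. The part of these cells in the differences was not tested.

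**Figure D3:**
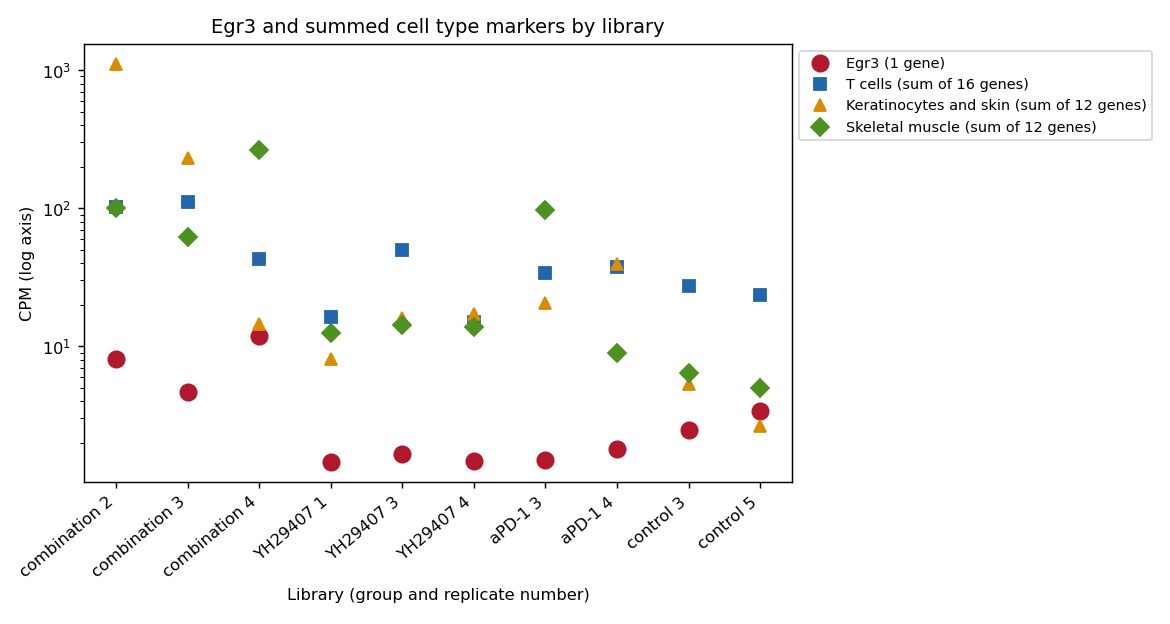
Egr3 (circles) and the summed CPM of T cell, keratinocyte and skin, and skeletal muscle markers (vertical log axis) in the 10 libraries (horizontal axis). Egr3 is between 4.70 and 11.9 CPM in the combination and at most 3.39 CPM elsewhere, while the keratinocyte sum is 1110 CPM in combination replicate 2 and 14.6 CPM in combination replicate 4.

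Against aPD-1 alone, which asks what YH29407 adds to the antibody, the same Egr genes were higher in the combination. Egr3 had a log2 fold change of 2.32 ± 0.42 and Egr2 of 1.27 ± 0.55, with edgeR adjusted p of 0.565 for both, and all 3 combination tumors were above both aPD-1 tumors (2.57 and 5.09 CPM for Egr2). With Nr4a3, 3 of the 10 genes were higher without overlap, against 14.9% of all genes. DESeq2 called Egr3 (adjusted p = 7.67e-05), with 1.41% of its genes called. At an unadjusted p under 0.05 Egr2 and Egr3 were the 2 higher genes of the 10, against 5.76% of all genes. Egr2 was no longer below 0.05 when combination replicate 2 or 4, aPD-1 replicate 3, control replicate 3 or control replicate 5 was left out, while Egr3 was below it each time. Fosb was the 1 lower gene, against 2.34% of all genes, with a log2 fold change of -2.13 ± 0.70, and Fos had one of -0.79 ± 0.56. Both rested on aPD-1 replicate 4: without it the values were -0.11 for Fosb and 0.72 for Fos.

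Against the control group the Egr genes parted. Egr3 was again higher in the combination, with a log2 fold change of 1.49 ± 0.41 (edgeR adjusted p = 0.46; DESeq2 adjusted p = 0.032, with 1.91% of its genes called). It was 1 of the 10 at an unadjusted p under 0.05, against 6.98% of all genes. Egr2, by contrast, had 11.2, 7.53 and 8.87 CPM in the combination against 8.38 and 9.06 CPM in the control group, a log2 fold change of 0.08 ± 0.52. Fos (0.83 ± 0.58), Fosb (0.99 ± 0.73) and Nr4a3 (0.49 ± 0.44) had positive log2 fold changes whose unadjusted p did not pass 0.05.

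Each single treatment was then set against the control group. With YH29407, Egr2 had 2.07, 5.58 and 1.72 CPM against 8.38 and 9.06 CPM in the control group, and Egr3 had 1.45, 1.66 and 1.47 CPM against 2.47 and 3.39 CPM. The log2 fold changes were -1.48 ± 0.52 and -0.94 ± 0.38, and these 2 of the 10 were lower at an unadjusted p under 0.05, against 1.5% of genes. Neither was below it without YH29407 replicate 1 (2.59% of all genes in either direction), without YH29407 replicate 4 (3.0%) or without control replicate 5 (2.37%). Egr2 alone of these was below it without combination replicate 2 (3.78%), YH29407 replicate 3 (9.79%) or aPD-1 replicate 4 (3.2%). With aPD-1, Egr2 had 2.57 and 5.09 CPM and Egr3 had 1.5 and 1.8 CPM against the same control tumors, with log2 fold changes of -1.19 ± 0.58 and -0.83 ± 0.43. The edgeR adjusted p was 1 for all 4 values. DESeq2 called 0 of the 10 genes in either comparison, with 0.668% of its genes called for YH29407 and 0.21% for aPD-1. These 2 comparisons share the control tumors, so that they are not separate evidence. Jun (-0.77 ± 0.41) and Nr4a1 (-0.37 ± 0.28) with YH29407 had unadjusted p above 0.05.

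For Egr2 and Egr3 both single treatments lay below control in every tumor, and the combination lay above both single treatments in every tumor. These were 2 of the 10 genes with this order, against 0.669% of all genes. It is the order for which the 2 genes were picked out, so that the share describes it and tests nothing. Such an order also fixes the sign of the interaction as positive. The difference of the 2 effects, tested as the interaction of YH29407 and aPD-1, was a log2 value of 3.26 ± 0.56 for Egr3 and 2.75 ± 0.76 for Egr2 (edgeR adjusted p = 0.644 and 0.722, unadjusted p = 0.000293 and 0.00583). The interaction was positive at an unadjusted p under 0.05 in 3.78% of genes. DESeq2 gave adjusted p of 0.000126 for Egr3 and 0.0429 for Egr2, and called 0.852% of its genes. In the test of any difference among the 4 groups Egr3 (unadjusted p = 0.000242), Fosb (0.00447) and Egr2 (0.0288) were the 3 of the 10 below 0.05, against 10.6% of all genes, with edgeR adjusted p of 0.252, 0.34 and 0.44. DESeq2 called Egr3 and Fosb there, with 5.56% of its genes.

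The AP-1 genes Fos and Fosb followed another pattern, set for Fos by 1 tumor and for Fosb in large part by the same tumor. Fos had 12.5 and 58.5 CPM in aPD-1 replicates 3 and 4, against 15.9 and 7.23 CPM in the control tumors. Fosb had 2.28 and 16.1 CPM in the aPD-1 tumors, against 1.31 and 0.798 CPM in the control tumors. Replicate 4 was above every other library for both genes, while replicate 3 was within the control range for Fos. For Fosb replicate 3 was also above both control tumors, an order of aPD-1 over control held by 20.9% of all genes. The ratio of replicate 4 to replicate 3 was 4.67 for Fos and 7.06 for Fosb, and 0.929% of all genes had a ratio above 4. The log2 fold changes to control, 1.62 ± 0.63 for Fos and 3.12 ± 0.83 for Fosb (edgeR adjusted p = 1 for both), were 0.11 and 1.11 without this tumor. Fos and Fosb were the 2 of the 10 genes higher than control at an unadjusted p under 0.05, against 1.39% of all genes. Without aPD-1 replicate 4, 0 of the 10 were below it (1.52% of all genes in either direction). Without control replicate 5 there was 1, Fosb (2.14%). YH29407 against aPD-1 gave -1.62 ± 0.56 for Fos, -3.04 ± 0.71 for Fosb and -0.95 ± 0.41 for Jun, with 2.02% of genes lower at an unadjusted p under 0.05. Without aPD-1 replicate 4 the first 2 values were -0.10 and -1.01. Then 0 of the 10 genes were below it, with 2.0% of all genes in either direction. Only Fosb of the 10 was below it without YH29407 replicate 1 (3.21% of all genes). DESeq2 called Fosb in that comparison (adjusted p = 0.00655, with 1.25% of its genes called).

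Other rapid response genes were also highest in aPD-1 replicate 4. Dusp1, a phosphatase that switches off MAP kinases, had 12.4 and 73.7 CPM in aPD-1 replicates 3 and 4 and at most 25.4 CPM in the other groups. Of 35 other immediate early and delayed early genes, 11 were highest in this library (31.4%, against 4.46% of all genes), among them Klf4, Ccn1 and Klf6. The same held for 3 of 15 MAP kinase phosphatase and sprouty genes, 3 of 15 heat shock genes (Hspa1a, Hspa1b and Dnajb4), 2 of 13 other AP-1 genes, 2 of 27 upstream factors and kinases (Mef2a and Mapk8) and 0 of 28 EGR corepressors and T cell genes linked to EGR or NR4A. Egr2 and Egr3 were not high in it, at 0.454 and 0.151 times the highest other library. These library counts were read after its Fos and Fosb values had been seen. A cause of this tumor's values was not tested.

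**Figure D4:**
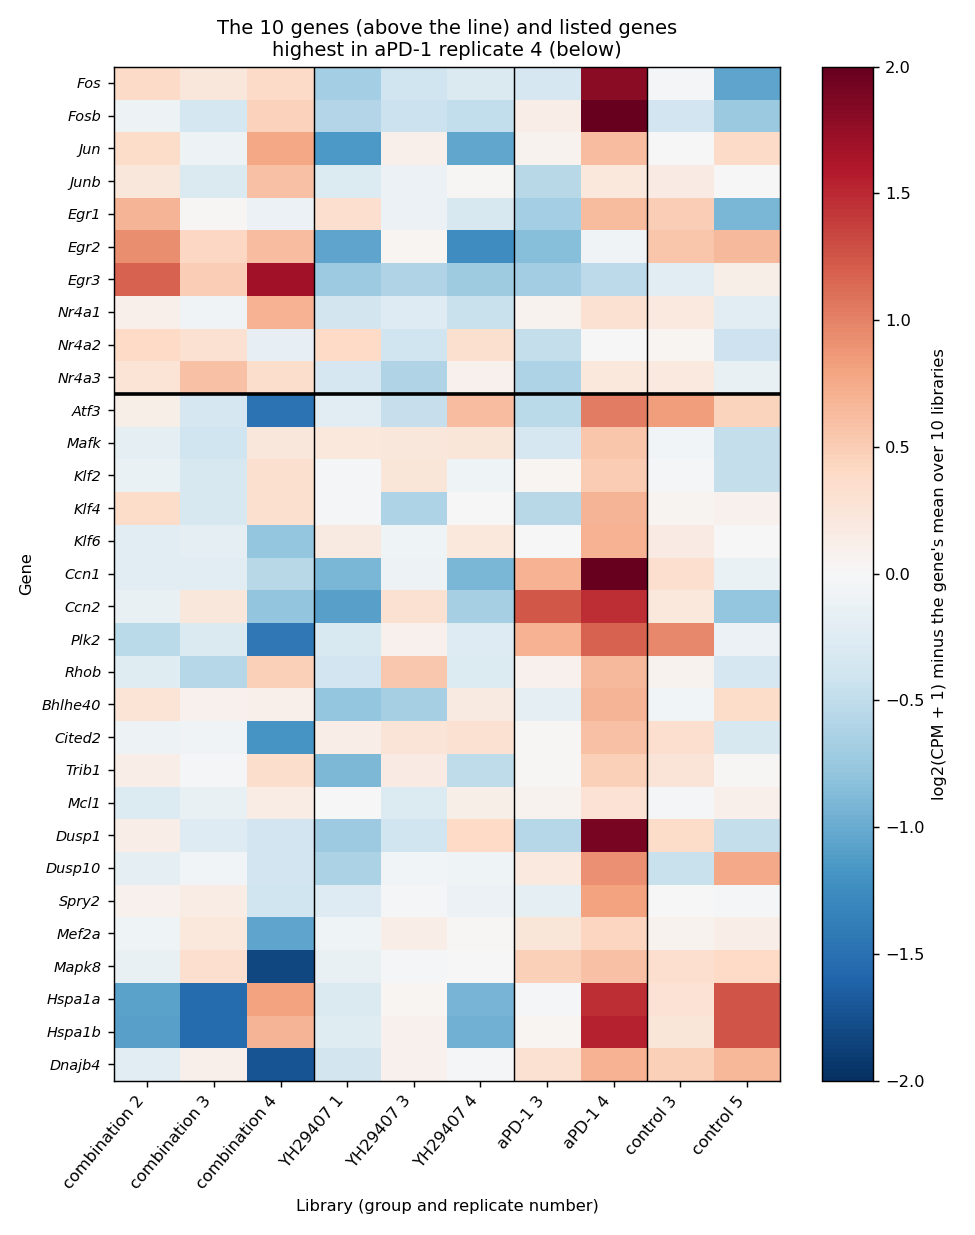
Log2(CPM + 1) minus each gene's mean over the 10 libraries (colour, ending at 2 in either direction) for the 10 genes above the line and, below it, the 21 listed genes that were highest in aPD-1 replicate 4, which were picked for that and so must be red there. Columns are libraries by group and replicate number. Fos and Fosb are darkest in aPD-1 replicate 4 and Egr3 in combination replicates 2 and 4.

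The genes that act before or beside these factors were read from lists, in the combination against YH29407. Counts are of genes with an unadjusted p under 0.05. The 13 other AP-1 family genes had a median log2 fold change of 0.37, and 3 of them were higher and 0 lower. Among the higher were Batf3 (1.32), a factor of cross-presenting dendritic cells, and Maf (0.97), a factor of macrophages and T cells. Mafg, a small Maf partner, had 0.48 and did not pass. The median of the 35 other immediate early genes was 0.22, and 7 were higher and 3 lower, Ier5l (1.73), Hes1 (0.79) and Ier2 (1.27) among the higher and the antiproliferative gene Btg1 (-0.57) among the lower. The 15 MAP kinase phosphatase and sprouty genes, which damp ERK, had a median of 0.11, and the 3 higher ones (0 were lower) were Spred3 (1.51), Dusp6 (0.80) and Spred2 (0.71). Dusp2 had 0.68 and did not pass.

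Of 27 upstream factors and kinases, 5 were higher and 0 lower, although the median was -0.15. Nfatc1, which encodes a factor of the NFAT family, had 79.3, 78.2 and 81.2 CPM in the combination, against 38.4, 51.4 and 36.4 CPM with YH29407. Its log2 fold change was 0.92 ± 0.17 (edgeR adjusted p = 0.181), and Elk3 (0.62), Nfatc2 (0.96) and Crtc3 (1.04) followed. The median of 28 EGR corepressors and T cell genes linked to EGR or NR4A was 0.43, and 6 were higher and 1 lower. The checkpoint genes Lag3 (2.04), Tigit (1.13) and Pdcd1 (1.58) were among the higher, and Rnf128 (-3.20), which encodes the anergy ligase GRAIL, was the lower one, with 24.3 CPM in YH29407 replicate 4 and at most 7.02 CPM in the other libraries. Of 15 heat shock genes 2 were higher, Hspb1 (2.84) and Bag3 (0.80), with a median of 0.01, while Hsp90ab1 (0.64) and Hsp90aa1 (-0.36) did not pass. All these are read against 10.6% of all genes higher and 6.84% lower, and 0 passed an adjusted p under 0.05 by edgeR.

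The 10 genes did not move as a single unit. Over the 10 libraries, which share groups and depth, the 45 pairs of genes had a median Pearson r of 0.45 in log2 CPM, 4 pairs were negative and 1 exceeded 0.8. That pair was Fos and Fosb (r = 0.91, Spearman rho = 0.83), and r was 0.59 without the 2 libraries farthest from the median of Fos. Egr2 and Egr3 had r = 0.76 and rho = 0.89, and r = 0.74 without the 2 farthest. The gene outside the set most like the mean of the 10 standardised profiles was Zfp36, itself a rapid response gene that encodes an mRNA decay factor (r = 0.94, rho = 0.92, 0.88 without the 2 farthest libraries). Rasd2 (r = 0.93), Gpm6a (0.93), Nlgn2 (0.91) and 9330159H11Rik (0.91) came next. The gene most like each single member was Tubb1 for Fos (r = 0.88), Zfpl1 for Fosb (0.92), Gm11946 for Jun (0.97), Vmn2r125 for Junb (0.94), Gm6225 for Egr1 (0.86), A830021M18Rik for Egr2 (0.97), Gm16238 for Egr3 (0.98), Thap4 for Nr4a1 (0.96), Arhgef16 for Nr4a2 (0.99) and Ctsg for Nr4a3 (0.92). Each is the highest value among all other genes tested, over 10 libraries.

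Reads could be shared with overlapping transcripts, since counting by strand is not stated. Junos, a noncoding gene annotated at or near Jun, had 2.65 to 4.03 CPM, against 106.2 to 402.9 CPM for Jun. LOC105244150, annotated at or near Nr4a2, had at most 0.899 CPM, and Gm26802, at or near Fosb, at most 0.0315 CPM. Gm32255, at or near Egr2, had 0 counts in every library.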

How the data were processed

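RNA from 10 tumors was sequenced as paired-end reads of 100 bp. According to the study's methods the authors trimmed reads with Trimmomatic and aligned them to mm10 by HISAT2. StringTie served to quantify 45777 genes, and the authors deposited a read count, an FPKM and a TPM per gene and tumor. The labels name both a capture kit for degraded RNA (SureSelectXT RNA Direct) and a SMARTER kit. Capture and fixation can change the level of a gene relative to others. The deposited counts are whole numbers of reads without molecular identifiers. The authors' deposited FPKM (fragments scaled to transcript length and library total) served in alternatives, with 1 or 0.1 added before log2, and their deposited TPM served to compare levels between genes. The labels do not say that tumors came from separate mice, so that p-values measure the spread between these samples. The study's methods describe injection into the right flank of the mice and call the sequenced samples independent. They name more samples than the 10 given here.

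Counts were normalized by TMM and tested with edgeR 4.0.16 (quasi-likelihood, filterByExpr, 1 coefficient per group, all 10 libraries, Benjamini-Hochberg over 21523 genes, threshold 0.05), in R 4.3.3. Comparisons were the 6 pairs of groups, the interaction, and a test of any difference among the 4 groups. Alternatives were RLE factors, no filter, a replicate block, only the groups compared, DESeq2 1.42.0, limma 3.58.1 on FPKM, each library left out, and 1 added setting without combination replicates 2 and 3. All 10 genes are named, with up to 4 genes of each list by the smallest unadjusted p in the combination against YH29407, and the genes most like the 10 by Pearson r. The 10 genes, the lists and the tests were chosen with earlier results of these data known. All 13 mitochondrial genes were read under the table's own names. A listed gene that the naming rule would give is not reported here.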

Additional observations from a re-analysis of the deposited data

Results flagged for a closer look

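Egr2 and Egr3 drew attention because their effects ran in opposite directions under the same added agent. Adding aPD-1 to YH29407 went with higher levels in every tumor, and aPD-1 without YH29407 with lower levels than control in every tumor. The same holds with the agents exchanged: YH29407 with aPD-1 was above aPD-1 alone in every tumor, and YH29407 alone was below control in every tumor. Taken singly, such orders were common among all genes. The combination was above YH29407 without overlap in 10.4% and above aPD-1 in 14.9%. Below control were aPD-1 in 21.0% and YH29407 in 12.8%. All of these orders held together in 0.669% of genes. Egr2 and Egr3 were flagged by these orders, so that this share is a description and not a test. The log2 difference of the effects, the same interaction term for both readings, was 2.75 for Egr2 and 3.26 for Egr3. It did not pass the adjusted threshold in edgeR's test (adjusted p = 0.722 and 0.644), passed it in DESeq2's, and was 2.29 to 3.51 for Egr2 and 2.91 to 3.61 for Egr3 when single libraries were left out. The single treatment groups share the control tumors, and the aPD-1 and control groups hold 2 tumors each.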

How the results depend on the processing

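The fit of 10 libraries called 0 genes in each of the 8 tests, so that any call under another setting is a change. DESeq2 called 1397, 315, 425, 263, 153 and 48 genes (combination against YH29407, aPD-1 and control, YH29407 against aPD-1 and control, aPD-1 against control), 179 for the interaction and 1238 for any difference among the 4 groups. Of the 10 genes it called 2 (combination against YH29407), 1 (against aPD-1), 1 (against control), 1 (YH29407 against aPD-1), 2 (interaction) and 2 (any difference). With limma on log2(FPKM + 1) the counts over all genes in the same order were 9, 4, 2, 3, 1 and 1, with 4 for any difference, and on log2(FPKM + 0.1) they were 19 for the combination against YH29407 and 1 against control. Without a filter on low counts 1 gene was called in each of these 2 comparisons, and with only the groups compared 1 gene between YH29407 and aPD-1. Leaving out single libraries gave 0 to 431 genes and 0 to 2 of the 10 (combination against YH29407), 0 to 11 (against aPD-1), 0 to 2 (against control), 0 to 96 (YH29407 against aPD-1), 0 to 75 (YH29407 against control), 0 to 2 (aPD-1 against control), 0 to 7 (interaction) and 0 to 78 genes (any difference). In the combination against YH29407 the 431 came without YH29407 replicate 3. Without combination replicates 2 and 3, a setting chosen after seeing the data, 8475, 7371, 7930, 1, 1 and 2 genes were called, 5178 for the interaction and 6478 for any difference, and of the 10 genes 2, 1 and 1 in the comparisons of the combination, 1 for the interaction and 2 for any difference.

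Of 609 log2 fold changes recomputed, 584 kept direction and side of the threshold, 15 passed it newly and 10 turned sign. In the combination against YH29407, Egr1 ranged from -0.0058 to 0.49 and Nr4a2 from -0.15 to 0.24 when single libraries were left out, and they were -0.23 and -0.47 without combination replicates 2 and 3. Fos against aPD-1 ranged from -1.56 to 0.72, and Egr2 against control from -0.040 to 0.24, with -0.092 without combination replicates 2 and 3. The cause was not tested, apart from Fos, where aPD-1 replicate 4 alone held the high value. Group means by TPM in place of CPM kept the same order in 7 of the 10 genes and not in Fos, Jun and Nr4a2.

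Whether same-numbered libraries pair was not settled. Over 9 pairs their deviations from the group means correlated at -0.0027 to 0.209, with 2 pairs over 0.1. Yet 5 of 7 libraries correlated best with their own number. In a group of 2 tumors the deviations mirror each other, so that this check cannot decide the question. With the replicate block 0 genes were called in each test. At an unadjusted p under 0.05 there was 1 of the 10 genes (Egr3) in the combination against YH29407, with 2.67% of all genes. In YH29407 against control there were 0 of the 10, with 0.906% of all genes. Egr3 and Egr2 had log2 fold changes of 2.28 and 1.21 in the combination against YH29407, and Fos in the combination against control was -0.036. In this block the numbers 1, 2 and 5 each mark a single library, which the block takes up fully. Control then rests on replicate 3 alone. The fewer genes under 0.05 and the sign of Fos can therefore not be put down to pairing. Groups of 2 or 3 tumors, and a coefficient of variation of 25.8% to 56.1% for the 10 genes, limit what can be called, and each gene had at least 56 counts per library.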
